A study of Rattus norvegicus with 18 samples.

Results

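The angiotensin system genes described here are Agt, Ace, Agtr1a, Atp6ap2 and Lnpep, measured in whole rat retina before and after damaging light. They were chosen by gene symbol: every probe set whose only symbol in the platform's annotation table was one of these names, with the brightest to be kept where a gene had several. The list of names was drawn up with earlier results of these data known. All 5 genes were found, each with 1 probe set, among 14506 genes that the table names by a single symbol. The array held 29214 probe sets in all, and every test below was fitted over the whole array.

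The samples were 18 retinas, each on its own array (Affymetrix rat Gene 1.0 ST). There were 3 in each of 6 groups, each retina from a different animal per the study's methods. All groups were Sprague Dawley rats (an albino strain) aged 80 to 120 days, reared in cyclic light of 5 lux and fed the same vegetable matrix. The control group had no further treatment. The saffron group received a daily 1 mg/kg of saffron in that matrix over 3 weeks, and the PBM group received photobiomodulation, a red light of 670 nm for 3 min a day over 5 days. Both were sampled 24 h after the last pretreatment. The LD group (light damage) was exposed to bright light for 24 h, and in the SafLD and PBMLD groups the same exposure followed the saffron or the PBM. The descriptions of the samples give the bright light as 1000 lux, while the source names of the LD samples give 100 lux. The light-exposed animals were also dark adapted overnight and caged alone, so light and handling cannot be told apart. The labels give no sex for an array.

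The angiotensin system is best known as a hormone cascade that controls blood pressure and salt balance. Angiotensinogen, the product of Agt, is cut to angiotensin I, and angiotensin-converting enzyme (Ace) trims this to angiotensin II, which acts mainly through the AT1 receptor, encoded in rodents by the paralogs Agtr1a and Agtr1b. Many tissues hold a local version of the cascade, the retina among them, where its parts have been found in glia, neurons and vessels. Atp6ap2 encodes a membrane protein that acts as a receptor in this system and is also an accessory subunit of the vacuolar proton pump, the V-ATPase. Lnpep encodes the insulin-regulated aminopeptidase, which trims short peptides such as oxytocin and vasopressin and is the binding site of angiotensin IV.

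These genes parted in the groups exposed to bright light. Agt was about 2-fold lower than control in LD and in SafLD, Lnpep was about 1.7-fold higher in the same groups, and Ace, Agtr1a and Atp6ap2 passed the test in none of the 12 comparisons. In PBMLD both Agt and Lnpep lay between control and LD, and neither passed against control or against LD. Neither pretreatment given alone moved any of the 5 genes past the threshold. The levels are log2 intensities, and in RNA of whole retina fewer cells of a type and less RNA per cell cannot be told apart.

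The promoter of Lnpep is shown because it is the gene of the group that rose. It is the stretch of 250 bases just before the annotated start in RefSeq on the GRCr8 build, chr1:67027611-67027860, read from the minus strand, with matches to the GC box (GGGCGG on either strand), a motif of housekeeping promoters, in capitals.
Lnpep: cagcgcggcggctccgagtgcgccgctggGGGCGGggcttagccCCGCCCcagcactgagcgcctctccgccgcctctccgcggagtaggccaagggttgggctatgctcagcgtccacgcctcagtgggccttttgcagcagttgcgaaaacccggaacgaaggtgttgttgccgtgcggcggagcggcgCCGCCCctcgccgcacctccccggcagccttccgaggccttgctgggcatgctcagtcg
Of these bases 71.6% are G or C, and 3 GC boxes were found. Such a box was present in 30.47% of 33469 promoters of the same length. The other promoters that could be matched held 4 GC boxes (Ace), 2 (Agtr1a) and 2 (Atp6ap2), overlapping matches counted. A TATA box (TATAAA on either strand, in 12.93% of all promoters) was found once in Ace and once in Agtr1a and not in Lnpep or Atp6ap2. Neither TTCNNNGAA, the form bound by STAT factors (7.667% of promoters), nor TGANTCA, the form bound by AP-1 (6.34%), was found in any of the 4 windows. The table matched 4 of the 5 genes, without Agt.

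Agt supplies the only known precursor of the angiotensin peptides and belongs by sequence to the serpins. Its levels in control were 7.77, 7.55 and 7.87 on the log2 scale. In LD they were 6.77, 6.67 and 6.33, and in SafLD 6.70, 6.79 and 6.45. Every array of LD and of SafLD lay below every control array. In PBMLD the levels were 7.28, 6.98 and 6.95, above every array of LD and SafLD and below every control array. Such a separation held for 16.4% of all probe sets in LD against control and 13.1% in PBMLD against LD. This share was not computed for the other pairs of groups named here. The unexposed pretreated groups gave 7.33, 7.65 and 7.36 (saffron) and 7.57, 7.36 and 7.28 (PBM), and both overlapped control.

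**Figure D1:**
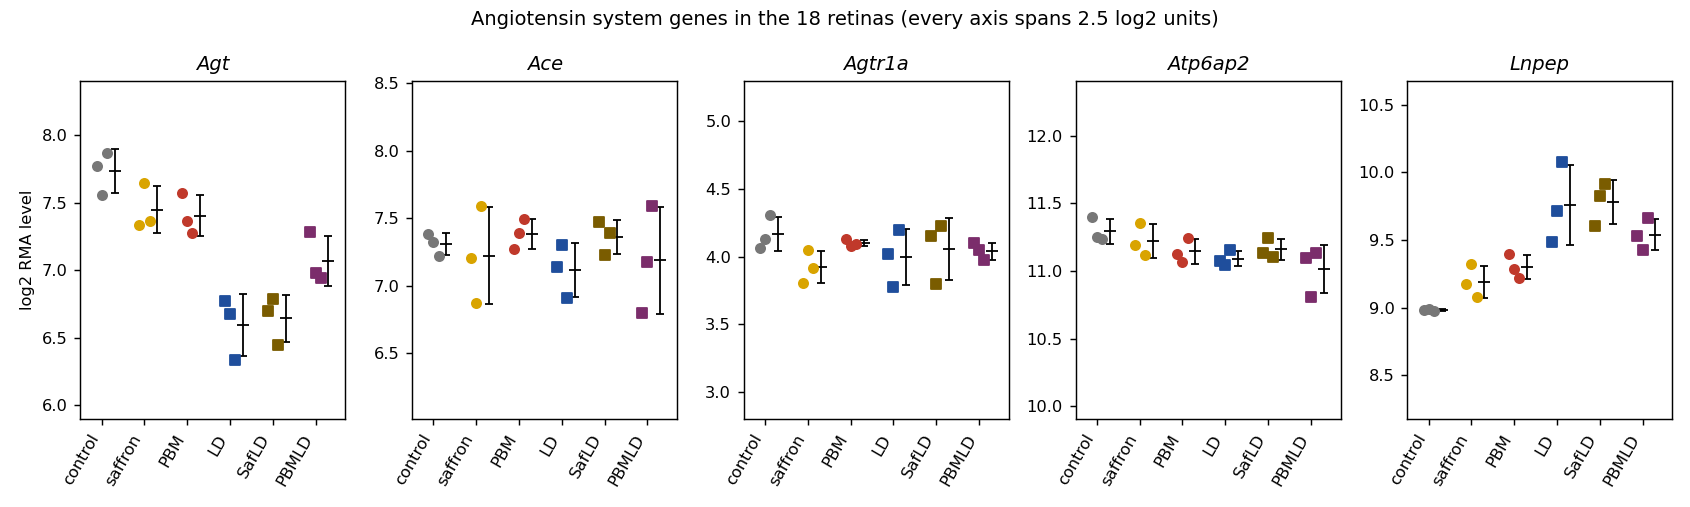
Levels of the 5 genes in each of the 18 arrays (y axis, log2 RMA level, with every axis spanning the same number of log2 units; x axis, the 6 groups). Circles are unexposed and squares light-exposed retinas, and the bar beside each group is its mean with 1 SD (n = 3). Agt is lowest in LD and SafLD, Lnpep lowest in control, and the groups of the other genes overlap for the most part.

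In LD Agt fell to 45.4% of control, a log2 difference of -1.14 (SE 0.15; 95% confidence interval -1.46 to -0.82; adjusted p = 6.2e-04, limma with Benjamini-Hochberg adjustment over all probe sets). In SafLD the difference from control was -1.09 (2.13-fold lower; adjusted p = 5.1e-04 in limma), and it fell short of 2-fold (-0.99) without SafLD replicate 3. These calls, at an adjusted p below 0.05 and a fold change over 2, were the only ones made for any of the genes against control. Among all probe sets such a call in the lower direction was rare: 0.0650% were called lower in LD and 0.373% in SafLD. The ranges of LD and control were apart for Agt, as they were for 16.4% of all probe sets. An exact permutation test of 3 arrays against 3 cannot go below p = 0.1, which is what Agt gave.

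In PBMLD the mean level of Agt was 7.07 ± 0.18 (SD, n = 3), against 6.59 ± 0.23 in LD and 7.73 ± 0.16 in control. The difference from control was -0.66 (1.58-fold; adjusted p = 0.0523 in limma). It was past the threshold without saffron replicate 2, LD replicate 3 or PBMLD replicate 1 (lowest adjusted p = 0.0319) and with array weights (adjusted p = 0.0168). The difference from LD was 0.48 (95% confidence interval 0.16 to 0.79), with an adjusted p of 0.240, and the 3 arrays of each group did not overlap, which held for 13.1% of all probe sets. The effect of light after PBM (-0.33, PBMLD against PBM, adjusted p = 0.592) was smaller than the effect without it by 0.81 (SE 0.21; 95% confidence interval 0.35 to 1.26). That difference between effects had an unadjusted p of 0.0016 and an adjusted p of 0.999 in limma, and it does not pass. The same quantity for saffron was 0.33 (SE 0.21; adjusted p = 0.882). SafLD and LD differed by 0.05 (adjusted p = 0.950), with overlapping arrays. The comparisons with LD and with control share those arrays and are not independent of each other.

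In order of mean level, Agt ran from control (7.73) through saffron (7.45), PBM (7.40), PBMLD (7.07) and SafLD (6.64) to LD (6.59). Neighbours in this order overlapped, except that PBMLD and SafLD were apart. The share of all probe sets apart in that pair was not computed. Saffron and PBM lay 0.28 and 0.33 below control, with adjusted p of 0.989 and 0.490. SafLD lay 0.80 below saffron (adjusted p = 0.00756; 0.0642 without SafLD replicate 3). Over the 9 exposed against the 9 unexposed arrays Agt was lower by 0.76 (SE 0.09; adjusted p = 3.4e-05 in limma), and an exact permutation test within the 3 pairs of groups gave p = 0.0005, two-sided, where the smallest it can give is 0.00025.

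Lnpep, the membrane aminopeptidase, was the tightest of these genes in control, at 8.98, 8.99 and 8.97. In LD it read 9.48, 9.72 and 10.07, and in SafLD 9.60, 9.82 and 9.91. All arrays of both groups lay above all control arrays. In PBMLD it read 9.53, 9.43 and 9.66. The values were 9.17, 9.32 and 9.08 in saffron and 9.40, 9.29 and 9.22 in PBM. These unexposed groups also lay above every control array, but the control arrays spread little (SD 0.01) and neither difference passed. LD and control were apart for 16.4% of all probe sets, and this share was not computed for the other groups against control. The lowest of the 9 exposed arrays (PBMLD, 9.43) was 0.03 above the highest of the 9 unexposed ones (PBM, 9.40).

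In LD Lnpep rose by 0.78 (1.71-fold; SE 0.14; 95% confidence interval 0.48 to 1.07; adjusted p = 0.00757 in limma). With these groups fitted alone the adjusted p was 0.109. In SafLD it rose by 0.80 (1.74-fold; adjusted p = 0.00424). Both differences passed the p threshold but not the 2-fold limit. With that threshold alone, Agt and Lnpep, 2 of the 5 genes, passed in LD and in SafLD, against 1.11% and 2.80% of all probe sets. The 5 were chosen with earlier results of these data known, so such counts only describe them. In PBMLD the difference from control was 0.56 (adjusted p = 0.0754; 0.0309 without LD replicate 3), and none of the 5 genes passed, against 0.753% of all probe sets. PBM alone stood 0.32 above control (adjusted p = 0.462) and saffron alone 0.21 (adjusted p = 0.989). No member passed in either, against 0.154% of all probe sets for PBM and 0% for saffron, where limma called no probe set at all.

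With pretreated retinas compared to LD, Lnpep was 0.22 lower in PBMLD (adjusted p = 0.569) and 0.02 higher in SafLD (adjusted p = 0.981). No member passed in these comparisons, where 0.284% and 0.308% of all probe sets did. Against its own pretreatment, SafLD was 0.59 above saffron (adjusted p = 0.0336; up to 0.183 without any one of the saffron arrays, SafLD replicate 2 or SafLD replicate 3), and there Agt and Lnpep passed, against 2.09% of all probe sets. PBMLD was 0.24 above PBM (adjusted p = 0.729), and no member passed, against 0.329%. The light effect on Lnpep after PBM differed from that without it by -0.54 (SE 0.20; unadjusted p = 0.0136, adjusted p = 0.999), and after saffron by -0.19 (adjusted p = 0.924). No member passed for either difference between effects. Of all probe sets 0.00685% passed for PBM and 0.140% for saffron.

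**Figure D2:**
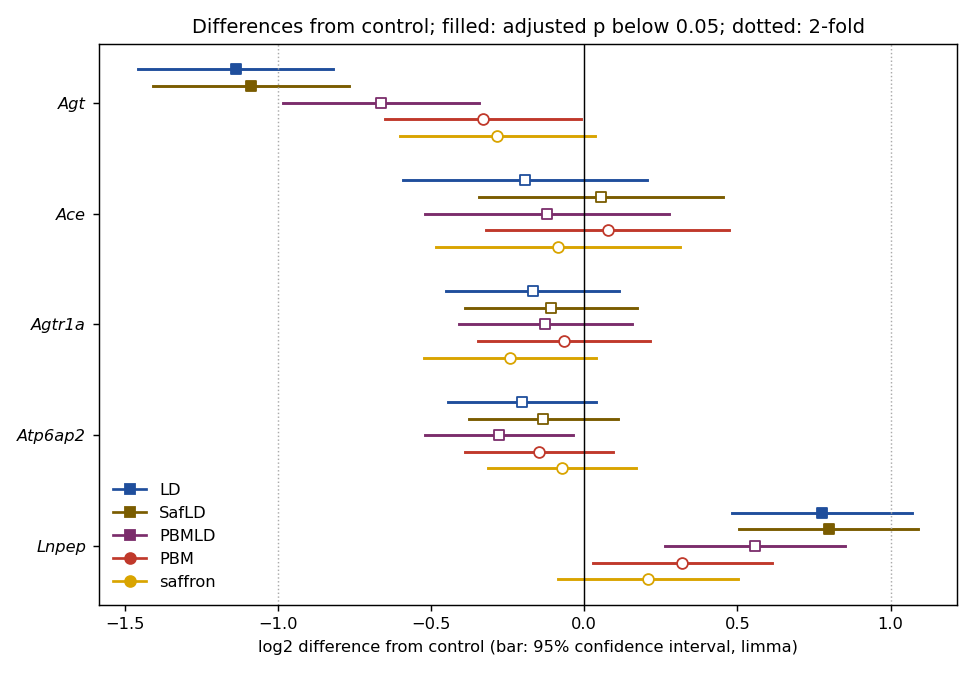
Difference of each group from control for the 5 genes (x axis, log2 difference; bars, 95% confidence intervals from limma). Filled symbols mark an adjusted p below 0.05, squares the light-exposed groups, and dotted lines a 2-fold change. Agt in LD (-1.14) and SafLD (-1.09) lies past the lower line, and Lnpep in LD (0.78) and SafLD (0.80) is filled but short of the upper one.

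In order of mean level, Lnpep ran from SafLD (9.78) through LD (9.76), PBMLD (9.54), PBM (9.30) and saffron (9.19) to control (8.98). Neighbours overlapped, except that PBMLD was apart from PBM and saffron from control. The share of all probe sets apart was computed for neither pair. Over all exposed against all unexposed arrays Lnpep was higher by 0.53 (SE 0.08; adjusted p = 4.85e-04 in limma). The exact permutation p was 0.00025, the smallest this design can give. The 2 sets of arrays did not overlap, which held for 1.03% of all probe sets. At the p threshold Agt and Lnpep were again the members that passed, against 4.82% of all probe sets. In the F test over the 6 groups Agt (F = 18.6, adjusted p = 5.3e-04, 2.20-fold between the extreme groups) was called. Lnpep (F = 10.7, adjusted p = 0.00748, 1.74-fold) passed the p but not the fold limit. Of all probe sets 1.44% were called in that test.

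Agt and Lnpep mirrored each other over the arrays. The correlation of their levels was r = -0.897 (Spearman rho = -0.876) over the 18 arrays. Of this, much is the difference between groups: with each group's mean taken away, r was -0.323. The arrays share a normalisation and the groups, so both values are descriptions. LD replicate 3 held the lowest Agt (6.33) and the highest Lnpep (10.07) of all arrays. That array also had a low array weight in limma (0.36), the lowest mean of rod markers (12.11) and a lens marker mean of 12.23. Whether these bear on its Agt and Lnpep was not tested. Control replicate 3 held the highest Agt (7.87) and the lowest Lnpep (8.97).

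**Figure D3:**
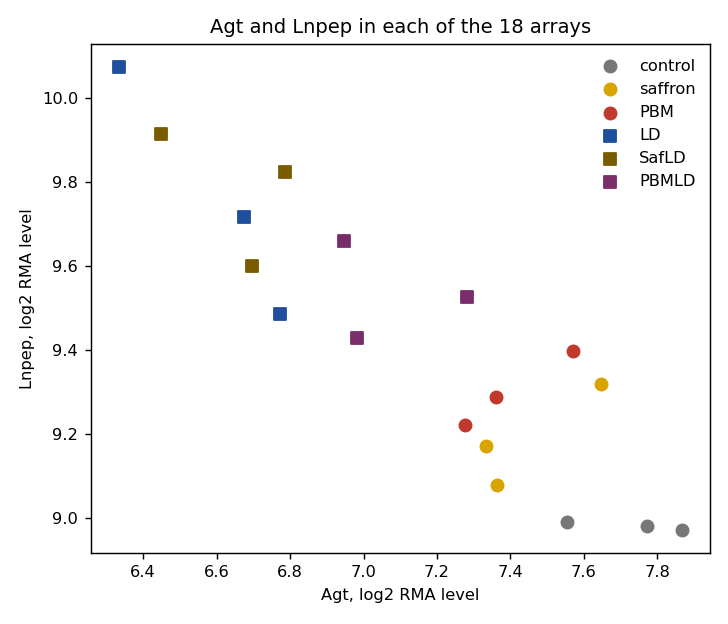
Level of Lnpep (y axis) against level of Agt (x axis), both log2 RMA, in each of the 18 arrays. Control retinas sit at the lower right, LD and SafLD retinas at the upper left, and PBMLD retinas between these and the unexposed pretreated groups.

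Ace, the peptidase that makes angiotensin II and is typical of vessel walls, read 7.38, 7.32 and 7.22 in control and 7.14, 7.30 and 6.91 in LD. In PBMLD it read 6.80, 7.18 and 7.59, and in SafLD 7.47, 7.23 and 7.39. In saffron it read 7.20, 6.87 and 7.59, and in PBM 7.27, 7.39 and 7.49. Every group overlapped its neighbours, and the widest scatter was within PBMLD and saffron. The difference of LD from control was -0.19 (95% confidence interval -0.59 to 0.20; adjusted p = 0.834), and over all exposed against unexposed arrays it was -0.08 (95% confidence interval -0.31 to 0.15; adjusted p = 0.799). A 2-fold change in either direction lies outside both intervals.

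Agtr1a, the main AT1 receptor of rodent vessels and kidney, gave a dim probe set. Its mean of 4.05 was brighter than 21.7% of all probe sets and lay under their median of 6.15. How far it stands above background was not tested. Its arrays read 4.06, 4.13 and 4.31 in control, 4.02, 3.78 and 4.20 in LD, 4.15, 3.80 and 4.22 in SafLD, and 4.10, 4.05 and 3.97 in PBMLD. The unexposed pretreated groups read 3.81, 4.05 and 3.91 (saffron) and 4.13, 4.08 and 4.09 (PBM). Saffron alone lay below every control array, by a gap of 0.01 and a mean of 0.24 (adjusted p = 0.989). The share of all probe sets with ranges apart in that comparison was not computed. LD differed from control by -0.17 (95% confidence interval -0.45 to 0.11; adjusted p = 0.770). Agtr1b, the close paralog, was likewise below the median, and its exposed arrays differed from the unexposed by -0.13 (adjusted p = 0.672). How far either probe set also reads the other gene was not tested.

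Atp6ap2, the receptor and V-ATPase accessory protein, was bright throughout, above 97.9% of all probe sets. It read 11.40, 11.25 and 11.23 in control, 11.19, 11.36 and 11.12 in saffron and 11.13, 11.06 and 11.24 in PBM. In LD it read 11.07, 11.05 and 11.15, in SafLD 11.13, 11.25 and 11.10, and in PBMLD 11.10, 10.81 and 11.13. Every array of LD and of PBMLD lay below every control array, by narrow gaps. In LD against control the ranges of 16.4% of all probe sets were apart, and the share for PBMLD was not computed. The differences were -0.20 in LD (95% confidence interval -0.44 to 0.04; adjusted p = 0.620) and -0.28 in PBMLD (95% confidence interval -0.52 to -0.04; adjusted p = 0.339). Over all exposed against unexposed arrays the difference was -0.13 (95% confidence interval -0.27 to 0.01; adjusted p = 0.346, unadjusted exact permutation p = 0.017).

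A list of further genes of the angiotensin system had 23 measured members. In LD, SafLD and PBMLD against control, 0 of the 23 passed in limma in either direction. Of all probe sets 1.11%, 2.80% and 0.753% passed there. The median difference of the 23 in LD was -0.05, against -0.02 over all probe sets. Those that differed most in LD were Agtrap, which encodes a protein that binds the AT1 receptor (-0.48, adjusted p = 0.130), and Cyp11b2, the aldosterone synthase (-0.38, adjusted p = 0.610). Over all exposed against unexposed arrays 1 rose and 1 fell, where 4.82% of all probe sets passed. Rnpep, aminopeptidase B, rose by 0.36 (SE 0.08; adjusted p = 0.00838), and Prep, the prolyl endopeptidase that can form angiotensin 1-7, fell by 0.29 (SE 0.06; adjusted p = 0.00957). Of the other receptors of angiotensin peptides, Agtr2 differed by -0.03 and Mas1 by -0.04, and both were dim. The enzymes that lead to angiotensin IV, Enpep (0.05, adjusted p = 0.883) and Anpep (0.01, adjusted p = 0.984), did not pass either, and both were dim.

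**Figure D4:**
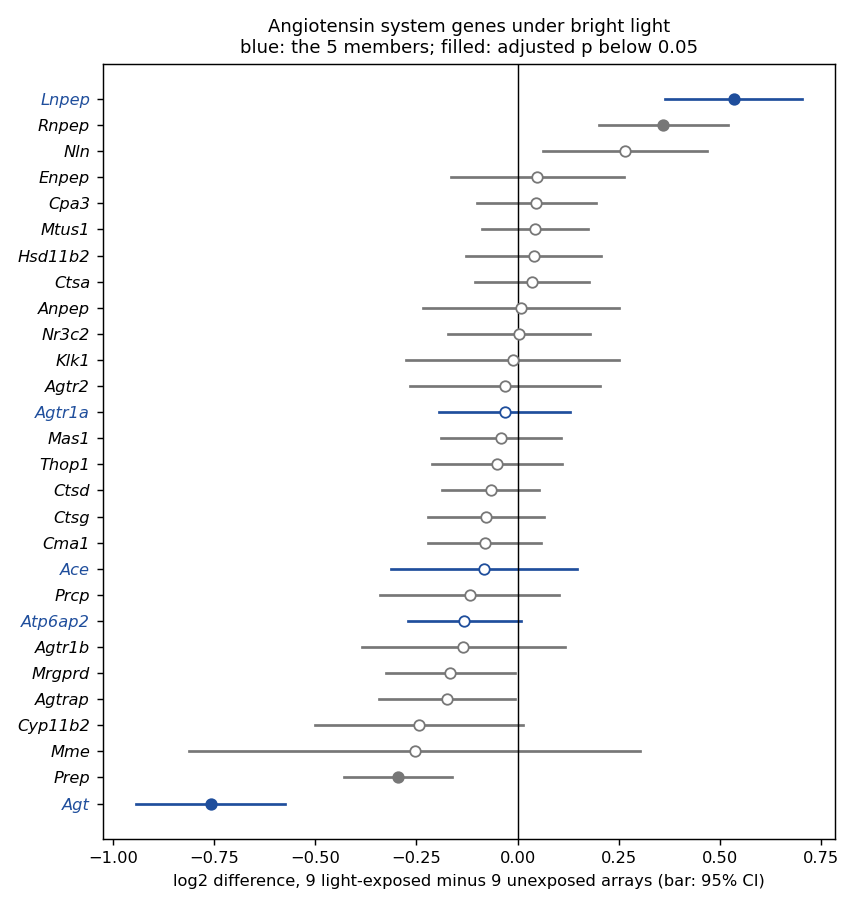
Difference of the 9 light-exposed from the 9 unexposed arrays (x axis, log2; bars, 95% confidence intervals) for the 5 genes, in blue, and the 23 further genes of the angiotensin system, in grey. Filled symbols mark an adjusted p below 0.05. Agt (-0.76) and Lnpep (0.53) are at the ends of the list, with Prep and Rnpep the only filled grey symbols.

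Downstream of the AT1 receptor, 0 of 11 measured genes of its coupling (G proteins, arrestins, phospholipases and regulators of G protein signalling) passed in LD, SafLD or PBMLD. The shares of all probe sets that passed there were 1.11%, 2.80% and 0.753%. The median of the 11 in LD was -0.22, against -0.02 over all probe sets. The largest differences there were Plcb3 (-0.35, adjusted p = 0.622) and Rgs5 (-0.29, adjusted p = 0.700). Among 16 measured V-ATPase genes, partners of Atp6ap2, 0 passed in LD, where 1.11% of all probe sets did. In SafLD 1 fell, Atp6v1g2 (-0.56, adjusted p = 0.0458), where 2.80% of all probe sets passed. Over all exposed arrays 1 of the 16, Atp6v0e2, fell by 0.33 (adjusted p = 0.0222), where 4.82% passed. The V-ATPase median was -0.12 in LD and -0.20 in SafLD, against -0.02 and 0.02 over all probe sets.

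Among 7 measured relatives of Lnpep in the M1 aminopeptidase family, 0 passed in LD, where 1.11% of all probe sets did. Erap1, which trims peptides in the endoplasmic reticulum, differed by 0.44 in LD (adjusted p = 0.343) and rose by 0.72 in SafLD (adjusted p = 0.0279), as 1 of the 7 where 2.80% of all probe sets passed. Rnpep, which belongs to both lists, was the 1 relative of 7 that rose over all exposed arrays, where 4.82% passed. The relatives' median was -0.03 in LD and 0.18 in SafLD, against -0.02 and 0.02 over all probe sets.

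Of 12 measured serpins and acute phase genes, a class to which Agt belongs in the liver, 4 rose in LD and 0 fell, and the other 8 did not pass; over the array 1.11% of probe sets passed there. Serpina3n, a protease inhibitor of reactive glia, rose by 3.85 (SE 0.57; adjusted p = 0.0016). Lcn2, an iron-binding protein of the acute phase, rose by 3.48 (adjusted p = 0.0106). Cp, ceruloplasmin, rose by 1.27 (adjusted p = 0.0174) and A2m, a broad protease trap, by 0.81 (adjusted p = 0.0204). The same number, 4, rose in SafLD, and 1, A2m, in PBMLD, where 2.80% and 0.753% of all probe sets passed. Over all exposed arrays 4 rose and 0 fell, while Agt was lower, and 4.82% of all probe sets passed. Serpinf1, a serpin without inhibitory activity like Agt, differed by -0.20 in LD and by -0.52 over all exposed arrays (adjusted p = 0.177).

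Of 18 measured genes of kinins, endothelins and natriuretic peptides, 1 passed in LD, 4 in SafLD and 0 in PBMLD, against 1.11%, 2.80% and 0.753% of all probe sets. The 1 that rose in LD did so in SafLD as well. This was Edn2, an endothelin made by stressed photoreceptors, at 0.95 (adjusted p = 0.0240) in LD, 1.23 (adjusted p = 0.00252) in SafLD and 0.79 (adjusted p = 0.0791) in PBMLD. In SafLD Calcrl, a receptor subunit for adrenomedullin, also rose (0.73, adjusted p = 0.0350), while Nppa, atrial natriuretic peptide (-0.54, adjusted p = 0.0405), and its receptor Npr1 (-0.54, adjusted p = 0.0392) fell. Npr1 and Calcrl were dim. Over all exposed arrays 2 of the 18 rose in limma, Edn2 by 0.89 (adjusted p = 1.1e-04) and Calcrl by 0.47 (adjusted p = 0.0094). There 1 fell, Npr1, by 0.45 (adjusted p = 0.0015), where 4.82% of all probe sets passed.

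The labelled tissue was borne out by its markers, with rod genes at mean levels of 12.11 to 12.83 in every array. Lists of other cells were read beside Agt and Lnpep. Over the array 1.11% of probe sets passed in LD, 2.80% in SafLD and 4.82% between exposed and unexposed arrays. The medians of all probe sets there were -0.02, 0.02 and -0.007. Of 10 astrocyte markers, Gfap, the filament protein of reactive glia, rose in LD by 3.27. The other 9 did not pass and went both ways, from -1.16 for the dim Gjb6 to 0.21 for Fgfr3. The median of that list was -0.09. Of 9 measured Müller cell markers 0 passed in LD or SafLD, with medians of -0.19 and -0.03. Of 9 measured endothelial markers 0 passed in LD, with a median of -0.26. Of 10 pericyte and smooth muscle markers 1 rose in LD, the dim Des, by 0.80, with a list median of -0.05. Of 10 microglial markers 1 fell in LD, P2ry12, by 1.04, from a dim probe set. The other 9 did not pass and went both ways, from -0.35 for Cx3cr1 to 0.68 for Ptprc, and the list's median was -0.02. Of 8 measured rod markers 1 fell in LD, Rom1, by 0.79 (adjusted p = 0.0282), and 1 fell in SafLD, Gnat1, by 0.52 (adjusted p = 0.0497). The rod medians were -0.23 in LD and -0.08 in SafLD. Over all exposed arrays 3 rod markers fell, Nrl by 0.82, Rom1 by 0.60 and Gnat1 by 0.49, where 4.82% of all probe sets passed. The other 5 did not pass, from -0.22 for Prph2 to 0.09 for Sag, and the median of the 8 was -0.14. Markers of other cells passed in that comparison too. Of the 9 endothelial markers 1 rose, Flt1 (0.43), and 2 fell, Cldn5 (-0.36) and Tek (-0.43). Gfap rose by 2.69 and the dim Des by 0.44. Car2 of the Müller cell list (-0.27) and the dim Gjb6 (-0.89) and P2ry12 (-0.70) fell. No ganglion cell, pigment epithelium or blood marker passed there. Of 7 measured ganglion cell markers 0 passed in LD, with a median of -0.24, and 2 fell in SafLD, Thy1 by 0.82 and Sncg by 0.80, with a median of -0.58. Of 8 measured pigment epithelium markers 0 passed in LD or SafLD, with medians of 0.52 and -0.07. Of 4 measured blood markers 0 passed in LD, with a median of -0.39. The part of these cells in the change of Agt or Lnpep was not tested.

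Lens genes marked some retinas. The mean level of 12 measured lens markers ran from 9.99 to 10.53 in control, 9.89 to 10.36 in PBM, 10.82 to 11.63 in saffron, 9.92 to 12.34 in LD, 10.35 to 11.41 in PBMLD and 9.89 to 10.89 in SafLD. LD replicate 2, with a lens level (9.92) below every control array, had Agt at 6.67 and Lnpep at 9.72, between the other LD arrays. This is 1 array, and the part of lens tissue in the change of either gene was not tested. None of the 12 passed in LD, where their median difference was 1.098. Without the 4 arrays highest in lens genes (saffron 1, LD 1, LD 3 and PBMLD 1), Lnpep in LD differed by 0.73 with an adjusted p of 0.0976, no longer past the threshold. That fit leaves 1 LD array and assumes that it varies like the other groups. Agt in LD was -1.06 there (adjusted p = 0.0233), and with the lens level as a covariate it was -1.16 (adjusted p = 0.00375). Lnpep in LD with that covariate was 0.81 (adjusted p = 0.0278).

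The genes with patterns most like each member were sought among 8934 named genes (8935 for Agtr1a) at or above the median of all probe sets, by Pearson's r of the levels over the 18 arrays, as a description. For Agt these were Rcvrn (r = 0.918), which encodes the photoreceptor calcium sensor recoverin, Miox (0.913), Susd3 (0.913), Tmem116 (0.913) and Tlcd3b (0.911). Each of these 5 was itself lower over the exposed arrays, from -0.60 for Rcvrn to -1.13 for Miox. For Lnpep they were Agtpbp1 (0.952), a tubulin-trimming carboxypeptidase, Slc25a30 (0.951), Il13ra1 (0.940), Pros1 (0.939) and Gk (0.938). All of those were higher over the exposed arrays, from 0.48 for Agtpbp1 to 2.28 for Slc25a30. With group means taken away the lists changed. For Lnpep the closest was then Sema3a (r = 0.919), and for Agt it was Phtf2 (0.866). The 5 genes named above for Lnpep still gave r from 0.79 (Gk) to 0.86 (Pros1) in that way. The 5 named for Agt gave r from 0.20 (Susd3) to 0.65 (Miox).

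Ace passed in none of the comparisons, and its likenesses held within groups as well. The genes most like it were Slc2a1 (r = 0.904), the glucose transporter of the blood-retina barrier, Lamb2 (0.889), a basement membrane laminin, and Notch2 (0.883). With group means taken away Slc2a1 gave 0.913, Lamb2 0.910 and Notch2 0.934, so the likeness was no smaller within groups. None of the 3 passed between exposed and unexposed arrays (adjusted p = 0.856, 0.602 and 0.676). Atp6ap2 was most like Impa1 (0.902), Htr1f (0.883) and Moxd1 (0.858), and these too kept r of 0.867, 0.882 and 0.872 with group means taken away. For the dim Agtr1a the highest r of the levels was 0.648 (Nagpa), and with group means taken away it was 0.880 (Mmp11).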

How the data were processed

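Retinal RNA of 18 rats was measured with the Affymetrix rat Gene 1.0 ST array. The deposited values were log2 intensities made by the authors with RMA (Affymetrix Expression Console 1.1.2800.19935 in the submitters' processing notes), 1.37 to 14.03, with array medians of 6.12 to 6.19. The sources used here name no genome build. Arrays give no counts, and 3 per group limits the precision.

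Group means were fitted with limma 3.58.1 (R 4.3.3) over 29214 probe sets, two-sided, with 12 residual degrees of freedom, and 12 comparisons were drawn from it, each adjusted over all probe sets (Benjamini-Hochberg). Symbols came from the platform table, where 15310 probe sets had 1, 323 several and 13581 none. Named genes were the 5 members, called genes and the 2 largest LD differences of 6 gene lists, selected genes of 10 marker lists, and up to 5 nearest genes by r. Members and lists were chosen with earlier results of these data known. Alternatives were other tests, weights, normalisations and filters, and leaving out each array. The fit was tested on simulated data.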

Additional observations from a re-analysis of the deposited data

How the results depend on the processing

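Agt in LD kept its direction under all 15 alternatives and with each of 18 arrays left out (-1.23 to -1.01). Lnpep in LD did likewise (0.62 to 0.91 with an array left out). The methods' t-test after adjustment called 0 of the 5 genes in LD and 0 in SafLD, where it gave Agt -1.14 (adjusted p = 0.372) and Lnpep 0.78 (adjusted p = 0.506) in LD, and adjusted p of 0.0923 and 0.0849 in SafLD and 0.212 and 0.240 in SafLD against saffron. Unadjusted, with the fold limit, it called 1 in LD and 1 in SafLD. Unadjusted and without the fold limit it also passed Atp6ap2 in LD, Lnpep in PBM and in saffron, Agt and Lnpep in PBMLD against control, Agt in PBMLD against LD and Lnpep in PBMLD against PBM. With the compared groups alone, Lnpep in LD was 0.78 (adjusted p = 0.109). With no fold limit the count of members called was 2 in LD, 2 in SafLD, 2 in SafLD against saffron, 2 in exposed against unexposed arrays and 2 over the 6 groups. Without SafLD replicate 3 the count in SafLD was 0, as the fold of Agt fell below 2, and it was 1 without any other array.

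Agt in PBMLD against control passed under array weights (adjusted p = 0.0168), cyclic loess (0.0396), without dim probe sets (0.0280) and with only probe sets of 1 symbol (0.0342), and without saffron 2, LD 3 or PBMLD 1. Lnpep in PBMLD passed with array weights (0.0121), without dim probe sets (0.0410) and without LD 3. SafLD against saffron was lost for Agt without SafLD 3 (adjusted p = 0.0642), and for Lnpep with the compared groups alone (0.0923) or without any 1 of the 3 saffron arrays, SafLD 2 or SafLD 3 (up to 0.183).

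2 alternatives were chosen after seeing the data. Without the 4 arrays highest in lens genes Lnpep in LD was 0.73 (adjusted p = 0.0976), Agt in PBMLD passed against control (0.0387), Lnpep in SafLD against saffron did not (0.0603), Ace in PBMLD turned to 0.073, Ace over exposed arrays to 0.040, and Agt in SafLD against LD to -0.031. With the lens level as a covariate Lnpep in SafLD against LD turned to -0.0066 and Lnpep in SafLD against saffron was lost (adjusted p = 0.110). Array weights turned Ace in PBMLD to 0.015, Ace in SafLD to -0.012 and Agt in SafLD against LD to -0.035. With arrays left out in turn, small differences that passed no test crossed 0: Ace in PBMLD (-0.32 to 0.073), Agtr1a in SafLD (-0.19 to 0.021), Agtr1a over exposed arrays (-0.065 to 0.012), and in SafLD against LD Agt (-0.081 to 0.15) and Lnpep (-0.12 to 0.18). The cause of each was not tested.

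Same-numbered arrays did not deviate together (mean r of -0.03, against 0.02 for other numbers). With the replicate number as a block Agt in LD was -1.14 (adjusted p = 6.9e-04) and Lnpep 0.78 (adjusted p = 0.0120), and 8 results passed, as without it. The mean of a gene's probe sets could change nothing, since each gene had 1.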
